A study of Mus musculus with 6 samples.

Results

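The genes described here are the secreted and membrane-bound matrix proteases of the Mmp, Adamts and Adamtsl families and their Timp inhibitors. They were chosen by name alone, as the non-control probes whose gene name is Mmp, Timp, Adamts or Adamtsl followed by a digit. Leaving aside 2 Mmp genes that are not reported here, this gave 78 probes of 46 genes among 41174 non-control probes. RNA was measured in proliferating satellite cells, the resident stem cells of skeletal muscle fibres, taken from female mice. Of the 6 samples, 3 came from mice that the series describes as Magic-F1+/+ and 3 from control mice, and each was hybridised to 1 single-colour Agilent array. Magic-F1 is an engineered variant of hepatocyte growth factor that acts on the MET receptor, and the series presents its mice as a model of muscle hypertrophy. The titles carry the word Omo for Magic-F1 and MLC3F for control, without explaining either. The promoter that drives Magic-F1, the controls' genotype, the age of the mice and any pooling of animals are not stated in the labels. The series calls the samples biological triplicates, but no label ties a sample to an animal or culture, so the p-values reflect the spread among these 6 samples alone, and that spread may be technical.

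Matrix metalloproteinases (MMPs) are zinc proteases that cut collagens, gelatin, proteoglycans and other matrix proteins. Most are secreted as inactive proenzymes, and the membrane-type members are anchored at the cell surface. Tissue inhibitors of metalloproteinases (TIMPs) bind and block the active enzymes. The ADAMTS proteases cut proteoglycans, procollagens and other matrix proteins, and the ADAMTS-like proteins share their ancillary domains but lack the protease domain. In muscle, such enzymes remodel the basement membrane and the interstitial matrix around fibres and satellite cells.

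A probe entered the test when the scanner software marked it as well above background throughout 1 group or both, which held for 49 member probes of 35 genes. Levels are log2 signals relative to each array's 75th percentile, and a gene is represented by its brightest tested probe. A level of one probe cannot be set against that of another. A change is the Magic-F1 mean minus the control mean on the log2 scale, with its standard error (SE), and a gene was called when limma's p, adjusted over all 21186 tested probes, was under 0.05. Of the 49 probes, 19 were higher in Magic-F1 (background 41.3% of all tested probes), 23 were lower (background 46.4%) and 7 were not called (called overall: 87.7%). By gene, 14 of the 35 tested genes were higher in Magic-F1, 17 were lower and 4 were not called. The 14 higher are 40.0% of the tested members, beside 40.6% of all 14907 tested genes, and the 17 lower are 48.6% beside 47.7%. The 31 called members are 88.6% beside 88.3% of all genes, so the number of calls does not set the families apart from the rest of the array. Called changes of at least 2-fold were found for 23 members (65.7%), beside 52.7% of all tested genes. Of these, 11 were higher, beside 24.2% of all tested genes, and 12 lower, beside 28.4%. The 23 include Mmp12, Mmp24, Adamts20, Adamts8, Adamts16 and Adamtsl3, which were above background throughout 1 group only. A difference was built into the selection of these genes, and Mmp24 is bounded only at 1.67-fold. The 52.7% was counted under the same filter and holds such genes too. The larger share of members was not tested and is no finding about the families. The median change of the tested members was −0.25, beside −0.15 over all tested genes.

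Of the 35 genes, 29 exceeded background on every array (12 higher, 13 lower and 4 not called). The other 6 passed the filter through 1 group only, 2 through Magic-F1 and 4 through control, so a difference was built into their selection. Over the tested member probes, arrays of the same group correlated at 0.997 to 0.999 and arrays of different groups at 0.852 to 0.860. The 75th percentile signal was 340.7 to 356.1 on the Magic-F1 arrays and 274.8 to 292.0 on the control arrays, and no spot was saturated. Scaling to the spiked-in transcripts instead moved the median of all genes from −0.15 to 0.31 and the share of called probes that were higher from 47.1% to 60.6%. The members then split into 17 higher and 13 lower. The directions given below are therefore relative to each array's own signal distribution, and named genes whose direction or call turned with that scaling are given with their value.

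**Figure D1:**
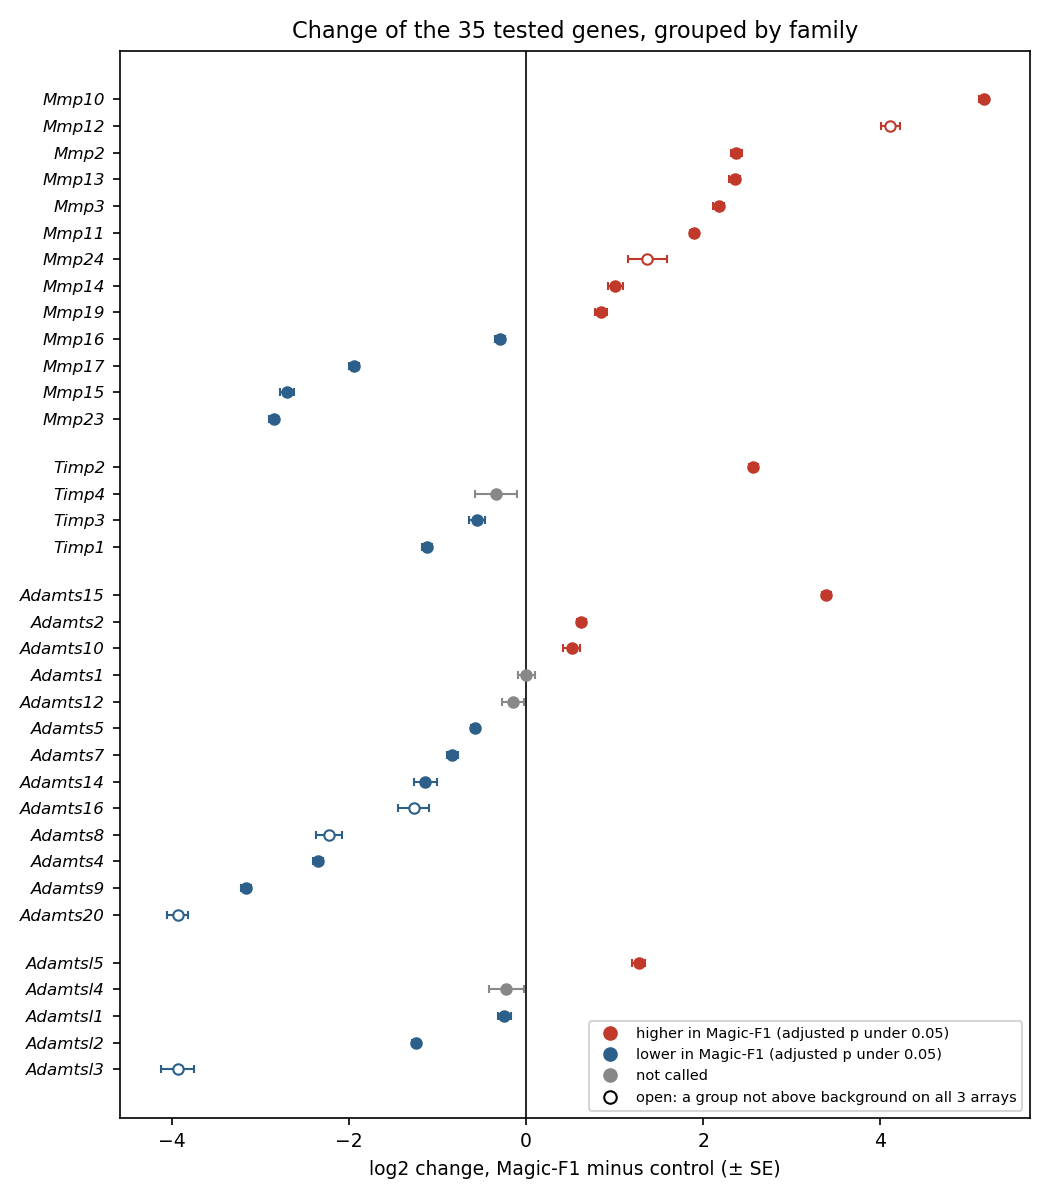
Change of the 35 tested genes on the log2 scale (horizontal axis, Magic-F1 minus control, bars ± SE), grouped by family and ordered by size. Red points are higher, blue lower and grey not called, and open points mark a gene with a group not above background on all 3 arrays. Among genes above background on every array, the changes run from 5.17 for Mmp10 down to −3.16 for Adamts9.

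The satellite cell label was set against marker genes, because proteases of this kind are made by several cell types of muscle. Of 10 myogenic markers, 9 were tested and 9 were lower in Magic-F1. Their summed signal, in units of the array's 75th percentile, was 61.4 to 63.0 on the Magic-F1 arrays and 871 to 930 on the control arrays. Pax7, the transcription factor that defines satellite cells, exceeded background on 3 control arrays and 0 Magic-F1 arrays, and Myf5 on none of the 6. Of 12 macrophage markers 11 were higher and 1, Lyz2, was lower, with sums of 1387 to 1456 against 421 to 449. All 8 tested adipocyte markers were higher (434 to 464 against 59.2 to 66.1). Of 9 tested neutrophil markers 8 were lower and 1, Csf3r, was higher (1.88 to 1.96 against 583 to 629). Among the lower, Camp, Ltf, Ngp and S100a9 were above background on no Magic-F1 array. Elane and Retnlg, also among the 11 on the list, could not be tested. Fibroblast markers were mixed, with 4 of 10 higher and 6 lower (762 to 778 against 1074 to 1102). Of 9 tested endothelial markers 3 were higher and 6 lower (17.6 to 19.1 against 10.1 to 10.6). The Magic-F1 endothelial sum came mostly from Vwf (mean level 4.08, against 0.50 in control), followed by Flt1 (0.06 against −0.58). Of the 6 lower markers, only Emcn was above background on every array, with a change of −5.70. Cldn5, Erg, Cdh5, Pecam1 and Robo4 passed the filter through control alone, so their fall was built into their selection. Flt1 and Kdr rose by 0.64. Likewise, the control macrophage sum came mostly from Lyz2 (8.48), followed by Cd14 (5.79). Of 7 pericyte and smooth muscle markers 6 were lower (289 to 301 against 1181 to 1227). Pax7, Camp, Ltf, Ngp, S100a9 and Rgs5 also passed the filter through control alone, and Retn and Mrc1 through Magic-F1 alone. Their differences were likewise built into their selection. These marker levels move with every change given below, and their part in it was not tested. In bulk RNA, fewer cells of a type and less RNA per cell cannot be told apart.

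The members that are secreted enzymes cutting collagen, gelatin, elastin and broad matrix substrates were higher wherever they could be tested. The 2 Mmp genes not reported here were not counted in any class. Of the 8 members in this class, 6 could be tested, and Mmp10, Mmp12, Mmp2, Mmp13, Mmp3 and Mmp11 were all higher in Magic-F1, where 40.6% of all tested genes were, with a median change of 2.37 beside −0.15. Mmp12 passed the filter through Magic-F1 alone, so its rise was built into its selection, and the other 5 had a median of 2.36. For none of the 6 did the 2 groups of arrays overlap, where 89.7% of all tested genes did not overlap. The other 2, Mmp1a and Mmp7, were above background on no array.

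Of these 6 genes, Mmp13, Mmp12, Mmp3 and Mmp10 are neighbours in one cluster of Mmp genes on chromosome 9, where the RefSeq gene table places no protein-coding gene of another kind between them. The members of that cluster include Mmp1a, Mmp20 and Mmp7 as well, which were below background on all 6 arrays. The start regions of the members were searched for the binding sequence of the transcription factor AP-1, a classical motif of inducible Mmp promoters, written TGANTCA and read on both strands. RefSeq start regions of build GRCm38.p6, from 250 bases before to 50 after the start site, were on hand for 35 start sites of 32 member genes. Members not searched were Mmp2, Mmp16, Mmp17, Mmp19, Adamts4, Adamts5, Adamts6, Adamts7, Adamts8, Adamts10, Adamts15, Adamts16, Adamts19 and Adamtsl1. The motif was present at 7 of the 35 start sites (20%), compared with 7.81% of 32851 start regions genome-wide. All 7 belong to the chromosome 9 cluster, 1 for each of its 7 members. None of the 26 start sites of the other 25 genes searched held it. The 250 bases before the start sites of the 4 risers are printed below, 5′ to 3′ on the plus strand, because these 4 genes rose and all hold the motif. Capitals mark the motif.
Mmp10, chr9:7502092-7502341: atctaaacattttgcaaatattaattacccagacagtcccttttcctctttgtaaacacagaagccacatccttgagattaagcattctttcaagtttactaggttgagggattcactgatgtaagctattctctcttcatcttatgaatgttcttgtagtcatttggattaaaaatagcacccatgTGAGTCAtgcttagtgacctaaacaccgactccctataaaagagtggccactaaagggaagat
Mmp3, chr9:7445572-7445821: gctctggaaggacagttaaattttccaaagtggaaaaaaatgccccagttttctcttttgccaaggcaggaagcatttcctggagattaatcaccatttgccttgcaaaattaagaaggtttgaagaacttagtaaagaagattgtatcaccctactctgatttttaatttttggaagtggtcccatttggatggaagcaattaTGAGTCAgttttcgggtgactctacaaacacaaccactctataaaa
Mmp13, chr9:7272264-7272513: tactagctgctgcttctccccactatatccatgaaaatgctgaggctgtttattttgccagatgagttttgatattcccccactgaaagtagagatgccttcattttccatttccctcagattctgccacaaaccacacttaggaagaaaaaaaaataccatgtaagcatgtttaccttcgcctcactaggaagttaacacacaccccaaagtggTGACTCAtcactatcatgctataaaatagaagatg
Mmp12, chr9:7347124-7347373: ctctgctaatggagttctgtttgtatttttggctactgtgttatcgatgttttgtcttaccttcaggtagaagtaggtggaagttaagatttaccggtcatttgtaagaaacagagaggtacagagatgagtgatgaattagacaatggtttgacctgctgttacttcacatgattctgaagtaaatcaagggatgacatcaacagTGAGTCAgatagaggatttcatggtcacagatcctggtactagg

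The motif begins at position −63 of Mmp10, −46 of Mmp3, −35 of Mmp13 and −44 of Mmp12, counted from the start site. The Mmp12 sequence is that of the second of 2 start sites in the table, and the first held no match. In the 3 undetected genes of the cluster it begins at −73 (Mmp1a), −95 (Mmp20) and −63 (the first of 2 Mmp7 start sites). The motif therefore occurs in cluster genes that rose and in cluster genes without measurable signal alike. The letters TATAAA on either strand were found at 10 of the 35 member start sites (28.6%), beside 13.6% of all start regions, and at −29 of Mmp10, −7 of Mmp3, −16 of Mmp13 and 5 of the second Mmp12 start site. The undetected cluster genes held these letters too, at −28 of Mmp1a, −58 of Mmp20 and 2 places of the first Mmp7 start site. The ETS core AGGAAG, the other motif searched, was found at 14 of 35 (40%), beside 35.4%. These matches describe letters only and show no binding.

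Mmp10 (stromelysin 2, a broad matrix protease that also activates other pro-MMPs) changed most of all members. Its probe at chr9:7510011-7510070 (mm9, the build of all probe positions given here) read 3.42, 3.41 and 3.47 on Magic-F1 arrays 1, 2 and 3. The control arrays read −1.76, −1.67 and −1.80. The groups lay far apart and each was tight, and the change was 5.17 ± 0.05 (SE, n = 3 per group; adjusted p = 2.23e-08), or 36.0-fold. With normexp background correction it was 4.46. Mmp3 (stromelysin 1, chr9:7455751-7455810) read 7.39, 7.31 and 7.39 in Magic-F1 and 5.13, 5.14 and 5.29 in control. Every Magic-F1 array was above every control array, a rise of 2.18 ± 0.06, or 4.52-fold (adjusted p = 3.59e-07). Mmp11 (stromelysin 3, which is activated inside the cell by furin, chr10:75386026-75386085) read 3.77, 3.77 and 3.83 against 1.91, 1.86 and 1.91. It was 3.72-fold higher, a change of 1.89 ± 0.04 (adjusted p = 1.80e-07).

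Mmp13 (collagenase 3, the main interstitial collagenase of rodents, chr9:7282762-7282821) read 2.45, 2.34 and 2.52 in Magic-F1 and 0.12, 0.02 and 0.11 in control. This is a rise of 2.36 ± 0.07, or 5.12-fold (adjusted p = 3.35e-07), with no overlap. Mmp2 (gelatinase A, which cuts denatured and basement membrane collagen, chr8:95376840-95376899) read 5.66, 5.65 and 5.72 against 3.34, 3.37 and 3.19. It was 5.19-fold higher in Magic-F1, a change of 2.38 ± 0.06 (adjusted p = 2.98e-07). Its change was close in size to that of Mmp13, on another chromosome.

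Mmp12 (macrophage elastase, named for the cells it was first found in) was measured only in Magic-F1. Its probe on chromosome 9 read −3.02, −2.82 and −3.06 there, well above background on 3 of 3 arrays. The control arrays read −6.90, −7.11 and −7.24 and none was well above background, so only a bound can be given. Against the lowest signals that were above background, Mmp12 was at least 3.98-fold higher in Magic-F1 (adjusted p = 2.88e-07 for the fitted change of 4.11). With normexp background correction the change was 0.49. Macrophage markers rose with it (11 of 12, listed above), and their part in its signal was not tested.

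**Figure D2:**
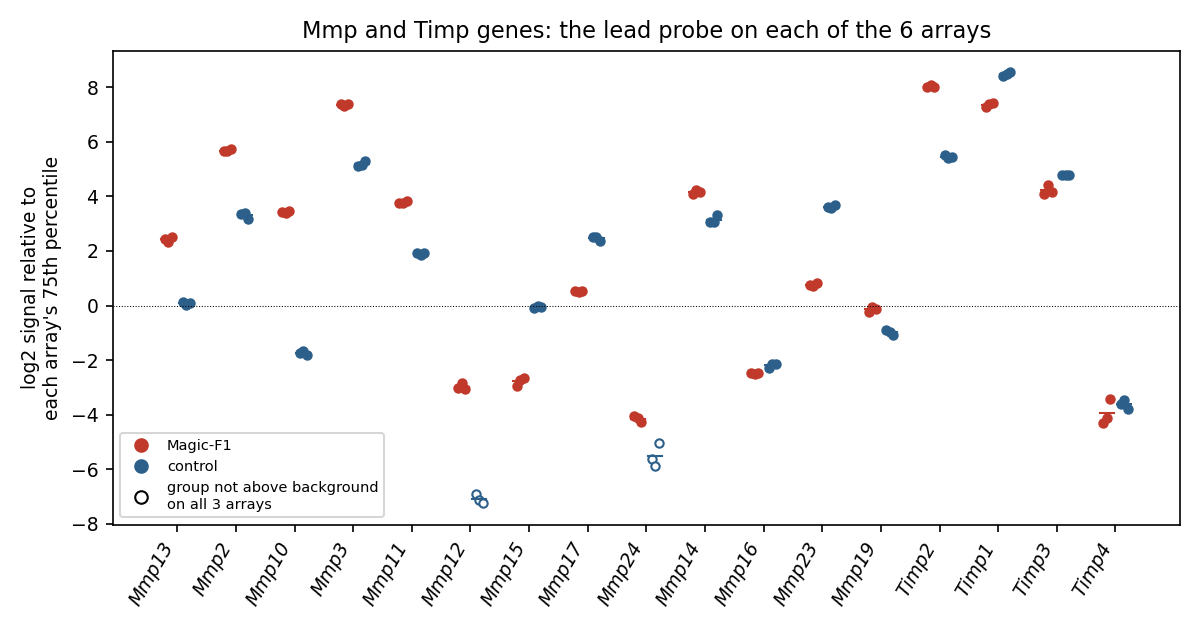
Level of each tested Mmp and Timp gene on each array (vertical axis, log2 signal relative to that array's 75th percentile), ordered by role. Red points are the 3 Magic-F1 arrays, blue the 3 control arrays, short lines the group means, and open points mark a group not above background on all 3 arrays. The groups are apart for every gene shown but Timp4, whose Magic-F1 values of −4.31, −4.13 and −3.42 span the control values. Levels of different genes come from different probes and cannot be compared.

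The membrane-type MMPs, which act at the cell surface, went in both directions. Of 6 members 5 were tested, with Mmp14 and Mmp24 higher and Mmp15, Mmp17 and Mmp16 lower, and Mmp25 was above background on no array. Mmp14 (MT1-MMP, a pericellular collagenase that activates pro-MMP2, chr14:55059969-55060028) read 4.09, 4.23 and 4.15 in Magic-F1 and 3.05, 3.07 and 3.31 in control. It was 2.01-fold higher, a change of 1.01 ± 0.09 (adjusted p = 5.21e-05), and a second probe gave 0.94. Mmp15 (MT2-MMP, chr8:97897703-97897762) moved the other way, reading −2.94, −2.71 and −2.65 against −0.09, −0.03 and −0.07. It fell by 2.70 ± 0.08 on the log2 scale (adjusted p = 5.02e-07), or by 1.79 with normexp background correction.

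Mmp17 (MT4-MMP, held by a lipid anchor, chr5:130113835-130113894) read 0.52, 0.50 and 0.53 in Magic-F1 and 2.50, 2.51 and 2.36 in control. It was 3.85-fold lower, a change of −1.94 ± 0.06 (adjusted p = 4.10e-07), and its second probe gave −2.08. Mmp24 (MT5-MMP, best known from the nervous system) read −4.04, −4.13 and −4.26 against −5.64, −5.87 and −5.03, the latter below background on all 3 control arrays. It was at least 1.67-fold higher (adjusted p = 0.00109 for the fitted change of 1.37), but with normexp background correction the change was −0.022 (adjusted p = 0.749) and the call was lost. Mmp16 (MT3-MMP) changed little, by −0.30 ± 0.05 (adjusted p = 0.00219), and stood at 0.16 (adjusted p = 0.0773) under spike-in scaling.

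Of 5 remaining Mmp genes, 2 could be tested and they moved apart. Mmp23 (a small transmembrane protease released by its own processing, chr4:155025377-155025436) read 0.76, 0.73 and 0.81 in Magic-F1 and 3.60, 3.57 and 3.67 in control. It was 7.22-fold lower, a change of −2.85 ± 0.05 (adjusted p = 6.66e-08), the largest fall among the Mmp genes tested here. Mmp19 (a secreted protease of basement membrane proteins) rose by 0.84 ± 0.07 (adjusted p = 4.16e-05). Over all Mmp genes, 9 of the 13 tested were higher and 4 lower, beside 40.6% and 47.7% of all tested genes. That count includes Mmp12 and Mmp24, which entered through Magic-F1 alone. The other 11 split into 7 higher and 4 lower with a median change of 1.01, and the median of the 13 with normexp background correction was 0.63, beside −0.15 for all tested genes.

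The 4 TIMPs did not move as a block. Timp2 rose, Timp1 and Timp3 fell, and Timp4 was not called. Timp2 (chr11:118163146-118163205) inhibits MMPs and also forms, with MMP14, the surface complex that activates pro-MMP2. It read 7.99, 8.07 and 8.01 in Magic-F1 and 5.53, 5.41 and 5.44 in control, with no overlap. The rise was 2.57 ± 0.05, or 5.93-fold (adjusted p = 1.20e-07). The 3 genes of that activation complex, Mmp2, Mmp14 and Timp2, were all higher in Magic-F1, where 40.6% of all tested genes were. Activation of pro-MMP2 itself was not measured.

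Timp1 (chrX:20451675-20451733), a secreted inhibitor induced in many inflamed and remodelling tissues, read 7.29, 7.38 and 7.40 in Magic-F1 against 8.42, 8.47 and 8.54 in control. It was 2.17-fold lower, a change of −1.12 ± 0.06 (adjusted p = 4.47e-06), and its second probe gave −1.40. Timp3 (chr10:85811696-85811755), which binds to the matrix and also inhibits ADAM and ADAMTS proteases, read 4.09, 4.42 and 4.15 against 4.77, 4.80 and 4.77. Magic-F1 array 2 lay closest to the controls but below them, and the change was −0.56 ± 0.09 (adjusted p = 0.00134). Under spike-in scaling Timp3 was at −0.10 (adjusted p = 0.353). Timp4 (chr6:115196120-115196179) read −4.31, −4.13 and −3.42 against −3.59, −3.46 and −3.78. The groups overlapped and the difference was −0.34 ± 0.24 (adjusted p = 0.216). Without Magic-F1 replicate 3 it was −0.61 (adjusted p = 0.00563), with normexp background correction −0.27 (adjusted p = 0.00696), and under spike-in scaling 0.11 (adjusted p = 0.618).

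The ADAMTS proteoglycanases, which cut aggrecan and versican, included more lower than higher genes. All 7 were tested: 5 were lower (Adamts20, Adamts9, Adamts4, Adamts8 and Adamts5), 1 was higher (Adamts15) and Adamts1 was not called. Over all tested genes, 47.7% were lower and 40.6% higher. Of the 5 lower, Adamts20 and Adamts8 passed the filter through control alone, so their fall was built into their selection. The 5 genes above background on every array held 3 lower and 1 higher, too few to describe the class. The median change of the 7 was −2.23, or −0.78 with normexp background correction, and that of the 5 above background on every array was −0.58, beside −0.15 for all tested genes. Adamts15 (chr9:30707033-30707092) read 2.05, 2.04 and 2.13 in Magic-F1 and −1.26, −1.32 and −1.36 in control. It was 10.48-fold higher, a change of 3.39 ± 0.05 (adjusted p = 4.64e-08). Its neighbour on chromosome 9, with no protein-coding gene between in the RefSeq table, is Adamts8 (chr9:30770220-30770279). Adamts8 read −5.16, −4.69 and −4.94 against −2.59, −2.91 and −2.59, with 1 of 3 Magic-F1 arrays above background. Its change was −2.23 ± 0.15 (adjusted p = 1.44e-05), or −0.78 with normexp background correction, so these adjacent genes were called in opposite directions.

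Adamts9 (chr6:92723051-92723110), which also cuts versican during development, read −2.65, −2.63 and −2.50 in Magic-F1 and 0.58, 0.55 and 0.58 in control. It was 8.94-fold lower, a change of −3.16 ± 0.06 (adjusted p = 7.00e-08), or −2.29 with normexp background correction. A second probe gave −3.30. Adamts4 (aggrecanase 1, chr1:173189671-173189730) read −0.60, −0.54 and −0.44 against 1.82, 1.86 and 1.79. It was 5.09-fold lower, a change of −2.35 ± 0.06 (adjusted p = 2.03e-07), with the groups well apart.

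Adamts20 (chr15:94181910-94181969), a large versican-cutting relative of Adamts9, read −6.71, −7.11 and −7.06 in Magic-F1, where no array was above background, and −2.97, −3.13 and −2.97 in control. It was at least 4.80-fold lower in Magic-F1 (adjusted p = 4.88e-07 for the fitted change of −3.94). With normexp background correction the change was −0.84. Adamts5 (aggrecanase 2) fell by 0.58 ± 0.05 on the log2 scale (adjusted p = 3.52e-05), its second probe by 0.27, and under spike-in scaling it was at −0.13 (adjusted p = 0.0618). Adamts1, its neighbour on chromosome 16, was at 0.00 ± 0.09 by its brightest probe (adjusted p = 0.977) but at −0.41 (adjusted p = 0.00272) by a second probe of the same transcript. The mean of the 2 probes gave −0.20 (adjusted p = 0.00356), and spike-in scaling 0.46 for the brightest, so Adamts1 has no settled direction here.

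The procollagen N-proteinases, which remove the N-terminal propeptide of fibrillar collagens, split. Adamts2 rose by 0.62 ± 0.05 (adjusted p = 2.80e-05), and its 4 probes gave 0.49 to 1.02, of which the lowest was not called (adjusted p = 0.0540). Adamts14 fell by 1.14 ± 0.13 on the log2 scale (adjusted p = 0.000215) and its second probe by 1.41, while Adamts3 was above background on no array. Of the pair that cuts cartilage oligomeric matrix protein (COMP), Adamts7 fell by 0.84 ± 0.06 (adjusted p = 3.13e-05). Adamts12 was not called by any of 3 probes, the brightest giving −0.15 ± 0.12 (adjusted p = 0.278), although it was at 0.30 (adjusted p = 0.0313) under spike-in scaling. The mean of its probes gave −0.21 (adjusted p = 0.0159).

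Among other ADAMTS genes, Adamts10 (which binds fibrillin microfibrils) rose by 0.51 ± 0.09 (adjusted p = 0.00215), and its second probe by 0.65. Adamts16 (chr13:70867148-70867207) read −5.58, −4.98 and −5.64 in Magic-F1, with 1 of 3 arrays above background, and −4.15, −4.09 and −4.16 in control. The groups did not overlap, and the change was −1.27 ± 0.18 (adjusted p = 0.000603), or −0.44 with normexp background correction. Over the whole ADAMTS family, 3 of 13 tested genes were higher, 8 were lower and 2 were not called. Of all tested genes, 40.6% were higher and 47.7% lower. Adamts20, Adamts8 and Adamts16 passed the filter through control alone, so their fall was built into their selection.

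**Figure D3:**
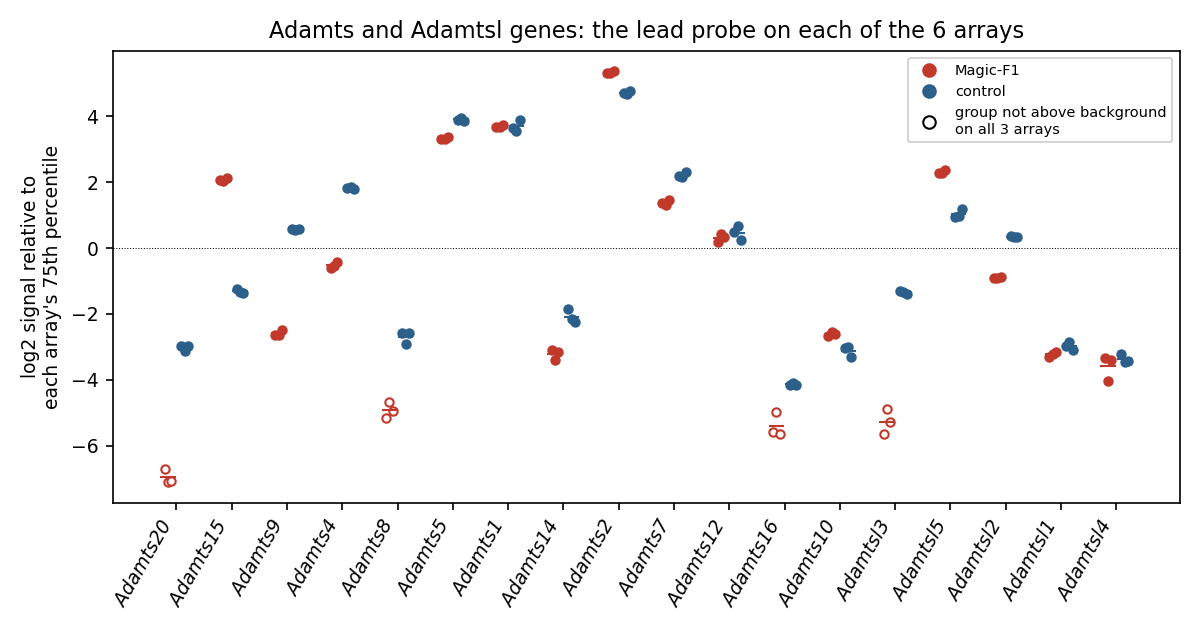
Level of each tested Adamts and Adamtsl gene on each array (vertical axis, log2 signal relative to that array's 75th percentile), ordered by role. Red points are Magic-F1, blue control, short lines the group means, and open points a group not above background on all 3 arrays. Adamts15 stands out upward (group means 2.07 and −1.32), while Adamts20, Adamts8, Adamts16 and Adamtsl3 have open Magic-F1 points below filled control points.

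The ADAMTS-like proteins, which have no protease domain and bind the matrix, were all 5 tested, with 1 higher, 3 lower and 1 not called. Of all tested genes, 40.6% were higher and 47.7% lower. Among the lower, Adamtsl3 passed the filter through control alone, so its fall was built into its selection. Adamtsl3 (punctin 2, chr7:89762009-89762068) read −5.66, −4.89 and −5.27 in Magic-F1, with 1 of 3 arrays above background, and −1.29, −1.32 and −1.39 in control. Its change was −3.94 ± 0.19 (adjusted p = 3.06e-06), or −1.61 with normexp background correction. Adamtsl2 (chr2:26964005-26964064), a partner of fibrillin and of latent TGF-beta binding protein, read −0.92, −0.91 and −0.88 against 0.37, 0.32 and 0.34. It was 2.38-fold lower (−1.25 ± 0.04, adjusted p = 7.06e-07). Adamtsl5 (chr10:79805571-79805630) read 2.27, 2.28 and 2.36 against 0.95, 0.98 and 1.17, and was 2.42-fold higher (1.27 ± 0.07, adjusted p = 8.03e-06). A second probe gave 1.75.

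The remaining ADAMTS-like genes changed least. Adamtsl1 was called lower by 0.25 (−0.25 ± 0.07, adjusted p = 0.0194), but it was called higher at 0.21 (adjusted p = 0.0175) under spike-in scaling. It also lost its call, with changes of −0.25 to −0.12 and adjusted p of 0.0519 to 0.249, in 9 other alternatives: quantile normalization, scaling to each array's median, no filter on dim probes, slide 1 alone, a trended and robust variance, the authors' log2 values and 3 that left out an array. The latter were without Magic-F1 replicate 1 (−0.21, adjusted p = 0.0655), without control replicate 1 (−0.25, adjusted p = 0.0519) and without control replicate 2 (−0.19, adjusted p = 0.0530). Adamtsl4 was not called (−0.22 ± 0.20, adjusted p = 0.323), with overlapping groups, though normexp background correction gave −0.19 (adjusted p = 0.0330) and spike-in scaling 0.23 (adjusted p = 0.309).

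Of the 46 genes, 11 had no tested probe: Adamts3, Adamts6, Adamts13, Adamts18, Adamts19, Mmp1a, Mmp7, Mmp20, Mmp21, Mmp25 and Mmp28. Each was well above background on 0 of 6 arrays, which bounds their signal and does not show absence of the transcripts.

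Genes with several tested probes allow a check within the array. Of 11 such genes, 8 had every probe called in the same direction, 2 (Adamts1 and Adamts2) had a mix of called and uncalled probes, 1 (Adamts12) had none called, and 0 had probes called in opposite directions. The widest spread between probes of a gene was 0.53, for Adamts2.

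**Figure D4:**
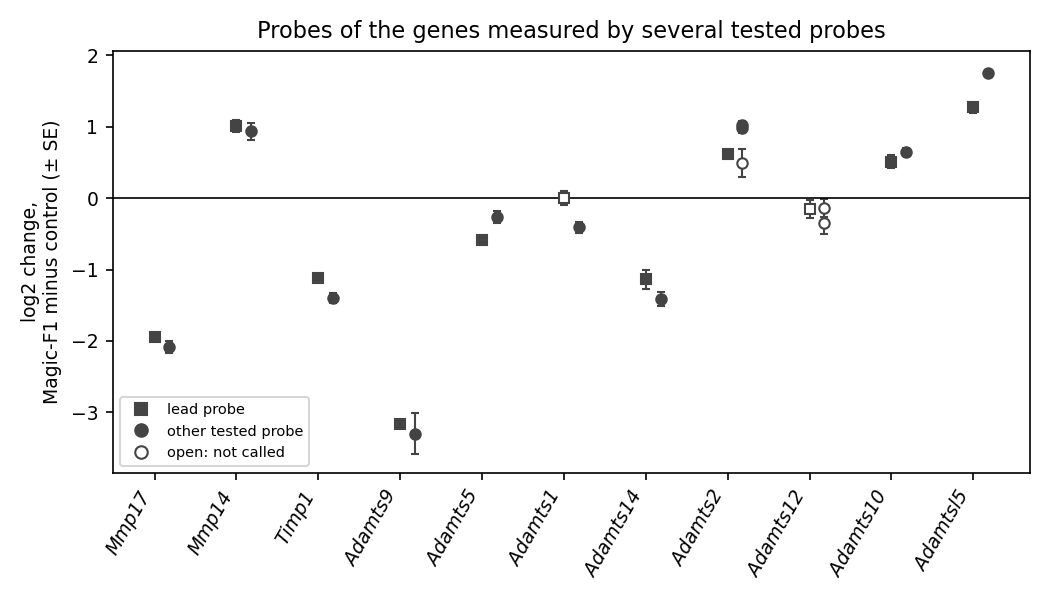
Change by each tested probe (vertical axis, log2, Magic-F1 minus control, bars ± SE) for the 11 genes with more than 1 tested probe. Squares are the brightest probe, circles the others, open symbols not called. Adamts9 lies at −3.16 and −3.30, and Adamts1 is at 0.00 by the brightest and −0.41 by the other.

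Matrix proteolysis also depends on other protease systems, given here as a list of 41 genes chosen by role. Of these, 31 were tested and 31 called, beside 88.3% of all tested genes. There were 16 higher (51.6%, beside 40.6%) and 15 lower (48.4%, beside 47.7%), with a median of 0.11. Under spike-in scaling 13 of the 31 were lower, with Plgrkt at 0.16 (adjusted p = 0.0885) and Mep1a at −0.17 (adjusted p = 0.304). In the main fit, the 28 genes above background on every array split into 15 higher and 13 lower. Adam12 and Pcolce2 passed the filter through control alone and Serpine2 through Magic-F1 alone. Their differences were built into their selection, and Serpine2 stood at 0.0049 with normexp background correction. The cathepsins and their inhibitor cystatin C, which act in lysosomes and at the surface of matrix-resorbing cells, were called higher (5 of 5), from Ctss at 3.84 down to Ctsl, which passed barely at 0.11 ± 0.04 (adjusted p = 0.0481). The procollagen C-proteinases, their enhancers and meprins were called lower (4 of 4 tested). These include Pcolce2, whose fall was built into its selection, and Mep1a, which lost its call under spike-in scaling. ADAM sheddases were 4 higher and 2 lower of 6, the plasminogen system 2 higher and 4 lower of 6, and other regulators 5 and 5 of 10. Adam12 is 1 of the 2 lower sheddases, and Serpine2 1 of the 2 higher plasminogen genes.

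The largest rises on the list were those of Hpse (heparanase, which cuts heparan sulfate; 4.24 ± 0.06), Ctss (cathepsin S, an elastin-cutting protease of antigen-presenting cells; 3.84 ± 0.05), Adam15 (3.27 ± 0.05), Adam8 (3.06 ± 0.04) and Lrp1 (2.98 ± 0.06). ADAM8 and ADAM15 are membrane proteases of leukocytes and other cells, and LRP1 is an endocytic receptor that clears MMPs and TIMPs. The 5 largest fitted falls were those of Serpinb2 (−5.66 ± 0.06), Pcolce2, Spock2 (−2.79 ± 0.15), Fap (−2.62 ± 0.06) and Adam12. Pcolce2 and Adam12 have only a bound and so no rank. Among genes above background on every array the next fall after Fap was that of Plaur, the urokinase receptor (−1.65 ± 0.04). SERPINB2 inhibits plasminogen activators, and FAP is a surface protease of activated fibroblasts. Pcolce2, an enhancer of procollagen C-proteinase, was above background on no Magic-F1 array and was at least 9.32-fold lower there (adjusted p = 3.26e-06). Adam12, a membrane protease of regenerating muscle, was likewise above background on no Magic-F1 array and at least 2.66-fold lower (adjusted p = 0.00315). With normexp background correction the changes of Serpinb2, Pcolce2, Spock2 and Adam12 were −4.60, −1.35, −1.06 and −0.50.

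**Figure D5:**
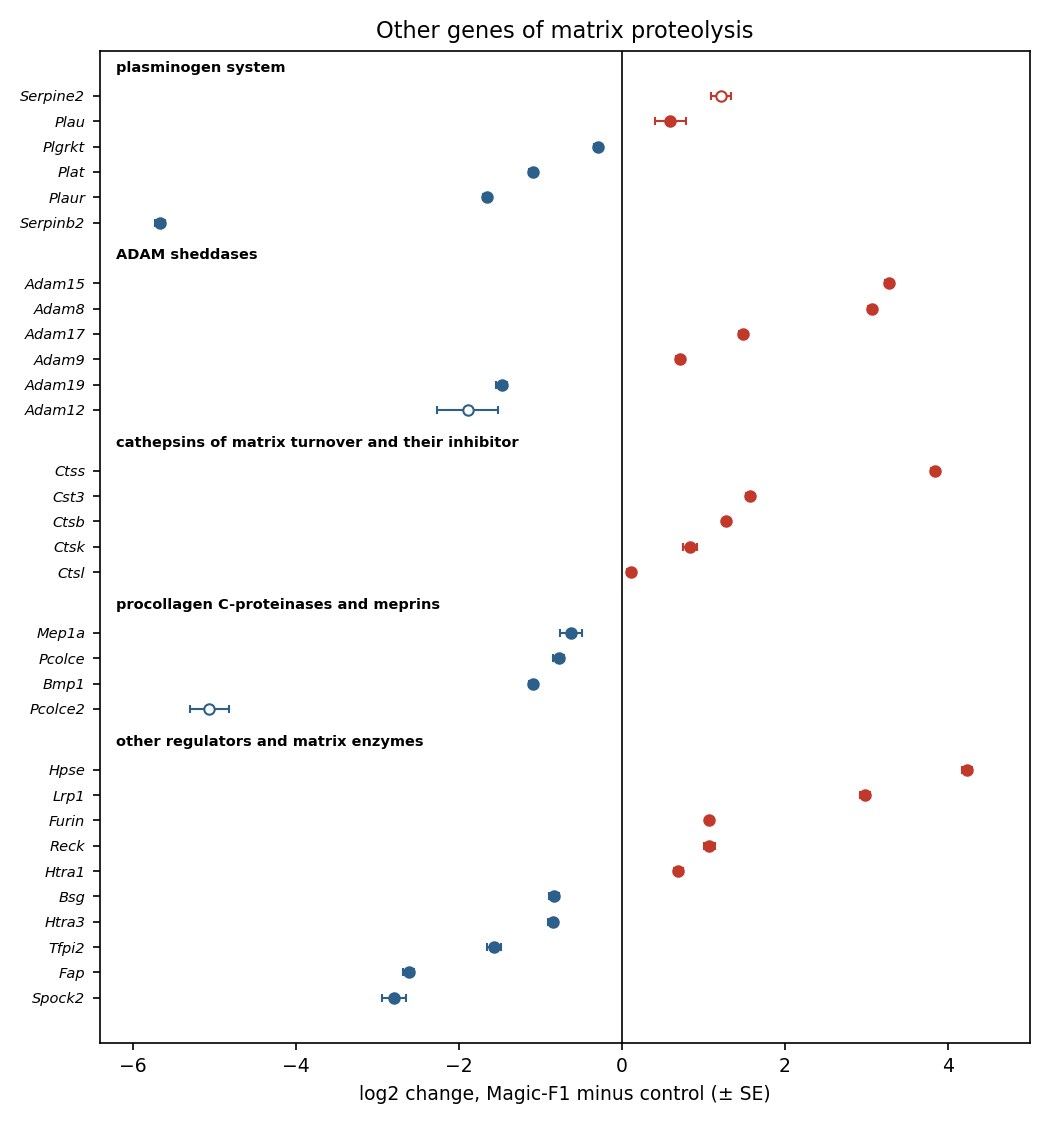
Change of the 31 tested genes from other matrix protease systems (horizontal axis, log2, Magic-F1 minus control, bars ± SE), grouped by system. Red is higher and blue lower in Magic-F1, and open points mark a group not above background on all 3 arrays. All 5 cathepsin-group genes lie right of 0 and all 4 tested procollagen C-proteinase and meprin genes left of it. Pcolce2, 1 of these 4, passed the filter through control alone.

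Among the 31 called members, 26 kept their direction and call in every alternative they entered. Of these, 21 entered all 19 tested alternatives, and Adamts20, Adamts8, Adamts16, Adamtsl3 and Mmp12 all but the filter on all 6 arrays. Among the rest, Mmp24, Mmp16, Adamts5, Timp3 and Adamtsl1 changed direction or lost the call in at least 1. All 31 had the same direction on slide 1 alone and on slide 2 alone. For none of the 31 did the 2 groups of arrays overlap, as for 89.7% of all tested genes. Their direction on each slide was therefore fixed in advance and is no separate check.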

How the data were processed

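Per the file headers, each array's deposited file holds a background-subtracted processed signal, an intensity per spot made by Agilent Feature Extraction 10.5.1.1 with no normalization between arrays. The authors also deposited log2 values for the whole series, which equal the log2 processed signal on 4 arrays (100% of spots within 1e-06) but not on both arrays numbered 1 (SD of the difference 0.456 and 0.472). They were used as an alternative. Groups came from the sample labels. Control spots and outlier spots (59 to 89 per array) were left out, each array's 75th percentile was subtracted from its log2 signals, and spots of a probe were averaged.

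Groups were compared with limma 3.58.1 (lmFit, eBayes, 2-sided) in R 4.3.3, with Benjamini-Hochberg adjustment over all tested probes. The median residual SD was 0.093 log2. Of the probes, 25097 were named through a RefSeq table of GRCm38.p6 and 16077 kept the name in the files. The exon or untranslated region of each probe was not determined, since no annotation of mm9 was used. A bound ("at least N-fold") sets the measured group's mean against, per array, the higher of the dim probe's signal and the lowest signal above background. Figures were drawn with matplotlib 3.10.9.

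The text names all 4 TIMPs and every tested member by role, with array values for the 20 with the largest change, and 5 rises and 5 falls of the other pathway genes, of which 1 listed gene is not reported here. The members, the lists and the motifs were chosen with earlier results of these data known. Tests were also run on simulated arrays of 21186 probes, with 1 residual SD per probe for both groups and 50 probes changed at each size. They recovered 62%, 82%, 96% and 80% of log2 changes of 0.5, 1, 2 and −1, with 8 false calls among 20986 unchanged probes. In the data 87.7% of probes were called, so the adjusted threshold differs there and these rates do not carry over. The samples were not treated as paired by replicate number. Deviations of same-numbered arrays correlated at −0.003, 0.108 and 0.069, and those of other pairs at −0.115 to 0.048. Magic-F1 arrays 2 and 3 correlated best with the same-numbered control array, and array 1 with control array 3. Slide 1 held replicates 1 and 3 of each group, and slide 2 held replicate 2. Alternatives covered background correction, scaling, filters, slide, replicate block, variance model, array weights, the authors' values, the probes of a gene and each array left out.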

Additional observations from a re-analysis of the deposited data

How the results depend on the processing

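Over 20 alternatives and the 35 tested genes, 694 changes were recomputed: 659 kept direction and side of the threshold (or, without a test, stayed within the spread), 11 lost the call, 5 gained it, 12 turned direction and 7, without a test, moved by more than the spread. Of the 12, 3 concern genes called as reported: Mmp24 with normexp background correction (−0.022), and Adamtsl1 (0.21) and Mmp16 (0.16) with spike-in scaling. The other 9 concern uncalled genes: Adamts12 (0.30), Adamtsl4 (0.23) and Timp4 (0.11) with spike-in scaling, and Adamts1 with the mean of its probes (−0.20), quantile normalization (−0.0035), slide 1 alone (−0.053) and 3 of the arrays left out (range −0.068 to 0.10). The cause was not tested beyond the scaling's shift of the median of all genes to 0.31. The median change of the members (−0.25) was −0.12 with each array's median, 0.21 with spike-in scaling and −0.38 on slide 2 alone. Leaving out each array in turn gave 18036 to 18688 called probes (18588 with all arrays), 19 to 20 member probes higher and 22 to 23 lower, 14 member genes higher and 16 to 18 lower, a median of −0.30 to −0.21, and 14 to 16 other pathway genes higher and 15 lower. With the replicate number as a replicate block, 18541 probes were called, 20 member probes were higher and 23 lower, and the member genes stood at 14 and 17. The block moved no count over 1.5 times. Magic-F1 arrays 2 and 3 correlated best with their same-numbered controls, and array 1 with control array 3. Changes of dim genes are limited by background: normexp correction made the fold over 1.5 times smaller for 9 called members, each named with its value above. With 3 arrays per group, an exact permutation test of a single gene cannot go below p = 0.1. Every call therefore rests on limma's model of the spread, which also draws on the other probes.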
